A study of Homo sapiens with 8 samples.

Results

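The YAP/TAZ-TEAD module was followed in IGR-N91 cell aggregates through 10 genes: the coactivators YAP1 and WWTR1 (which encodes TAZ), the DNA-binding factors TEAD1 and TEAD2, the target genes CCN1, CCN2 and ANKRD1 (CCN1 and CCN2 are CYR61 and CTGF in older annotations), and AMOTL2, AJUBA and LATS2, which act on the Hippo pathway. The genes were chosen by name, with earlier results of these data known. Their Ensembl identifiers all matched among the 60676 identifiers of the count table. IGR-N91 is a human neuroblastoma (NB) cell line, and all libraries came from this 1 line, grown as aggregates in hanging drops. There were 8 libraries in 4 groups of 2. Control aggregates were kept in control medium. E8-cSGcm aggregates (the labels also write cGScm) were kept in medium conditioned by sympathetic ganglia of chick embryos at embryonic day 8, E8-cDRGcm aggregates in medium conditioned by dorsal root ganglia of chick embryos of the same day, and E15.5-mSGcm aggregates in medium conditioned by sympathetic ganglia of mouse embryos at E15.5 (E stands for the embryonic day). The species and the age of the donor embryos changed together between the chick and the mouse media and cannot be told apart. Exposure is given as 20 h in the protocols and as 24 h in the series design. Nothing in the labels says that the libraries of a group came from separate cultures, so p-values measure the spread between these libraries, which may be technical.

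In the Hippo pathway, the kinases MST1 and MST2 (genes STK4 and STK3) activate LATS1 and LATS2, which phosphorylate YAP and TAZ and hold them in the cytoplasm. Unphosphorylated YAP and TAZ enter the nucleus and bind TEAD factors, which bring them to target genes such as CCN1, CCN2 and ANKRD1, while VGLL4 competes with YAP and TAZ for TEAD. LATS2 and AMOTL2 are themselves target genes and feed back on the pathway, and noradrenergic NB cells are known for low YAP1. RNA levels do not report phosphorylation or the place of a protein in the cell.

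The 5 promoter windows below are shown because TEAD factors reach their targets through a short DNA core, GGAATG, and because they belong to genes at opposite ends of the results: CCN2 and ANKRD1 were almost without reads, AJUBA and WWTR1 rose in both chick media, and YAP1 had few reads. Each window is 300 bases of RefSeq sequence (GRCh38.p14), from 250 bases before to 50 bases after an annotated gene start, written 5′ to 3′ on the strand of the gene. Capitals mark GGAATG.
CCN2, chr6:131951323-131951622, minus strand: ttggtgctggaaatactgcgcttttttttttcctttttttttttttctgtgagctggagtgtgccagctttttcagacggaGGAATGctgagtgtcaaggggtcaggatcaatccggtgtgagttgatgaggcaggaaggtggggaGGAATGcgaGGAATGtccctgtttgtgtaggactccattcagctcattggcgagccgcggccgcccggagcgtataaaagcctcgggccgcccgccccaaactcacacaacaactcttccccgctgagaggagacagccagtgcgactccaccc
ANKRD1, chr10:90921038-90921337, minus strand: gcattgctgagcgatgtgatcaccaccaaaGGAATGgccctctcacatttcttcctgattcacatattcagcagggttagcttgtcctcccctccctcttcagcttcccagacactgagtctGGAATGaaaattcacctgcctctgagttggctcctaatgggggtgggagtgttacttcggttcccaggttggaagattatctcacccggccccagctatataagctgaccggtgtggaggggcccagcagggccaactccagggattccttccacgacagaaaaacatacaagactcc
AJUBA, the second of 2 annotated starts, chr14:22976793-22977092, minus strand: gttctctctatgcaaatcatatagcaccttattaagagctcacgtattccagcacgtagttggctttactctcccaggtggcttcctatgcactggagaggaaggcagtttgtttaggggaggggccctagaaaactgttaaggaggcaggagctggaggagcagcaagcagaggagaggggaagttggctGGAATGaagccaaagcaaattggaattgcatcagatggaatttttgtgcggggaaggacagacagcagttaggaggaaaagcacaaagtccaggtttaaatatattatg
YAP1, chr11:102110197-102110496, plus strand: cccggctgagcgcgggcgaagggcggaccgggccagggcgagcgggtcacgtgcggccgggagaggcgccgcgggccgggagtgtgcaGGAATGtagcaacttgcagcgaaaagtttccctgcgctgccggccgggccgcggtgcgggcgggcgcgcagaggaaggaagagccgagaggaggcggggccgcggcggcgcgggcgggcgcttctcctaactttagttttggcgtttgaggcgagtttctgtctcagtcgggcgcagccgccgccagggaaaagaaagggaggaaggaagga
WWTR1, the second of 2 annotated starts, chr3:149657976-149658275, minus strand: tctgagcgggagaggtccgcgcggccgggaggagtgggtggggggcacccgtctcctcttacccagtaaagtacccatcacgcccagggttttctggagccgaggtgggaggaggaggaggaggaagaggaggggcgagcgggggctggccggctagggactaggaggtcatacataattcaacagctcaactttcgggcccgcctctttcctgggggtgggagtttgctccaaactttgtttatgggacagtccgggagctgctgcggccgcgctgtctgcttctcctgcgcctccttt

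Windows were at hand for 8 of the 10 genes, 12 windows in all; none was used for CCN1 and TEAD1. Searched on both strands, GGAATG lay in 6 of the 12 windows (50%), against 4928 of 35116 windows of all genes (14%). Several of the genes were listed because they are targets of TEAD factors, so this share and the match counts below are no independent result. CCN2 held 3 matches, with first bases at -169, -104 and -95 from the start, and at least 3 matches occurred in 0.128% of all windows. ANKRD1 held 2, at -220 and -128, and at least 2 matches occurred in 1.37% of all windows. YAP1 held 1 at -162, the second AJUBA window 1 at -59, the second AMOTL2 window 1 on the opposite strand at -69, and LATS2 1 at 10 bases after the start. The windows of WWTR1 and TEAD2 held none, which says only that these letters are not in those windows. The AP-1 core TGANTCA, searched in the same way, was found in 1 of the 12 windows, that of ANKRD1 at -195, against 7.71% of all windows; no match of it overlapped a GGAATG match in these windows. A match is a description of sequence and not a shown binding site.

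Total reads per library ran from 12286211 to 15060744 in control medium and both chick media, and were 7930765 and 8937397 in E15.5-mSGcm. Taking 3 reads as the smallest amount a library can show, the floor was 0.197 to 0.384 CPM (counts scaled to library size with TMM factors). Floors and counting intervals cover counting error only, because PCR copies of a molecule could not be told from separate molecules. Of the 10 genes, 5 had enough reads to be tested (WWTR1, TEAD1, TEAD2, CCN1 and AJUBA) among 16680 tested genes, and YAP1, CCN2, ANKRD1, AMOTL2 and LATS2 did not pass the filter on low counts. To be called changed, a gene needed an adjusted p below 0.05 together with a change of at least 1.5-fold. In these bulk libraries, fewer cells that express a gene and less of its RNA per cell cannot be told apart.

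**Figure D1:**
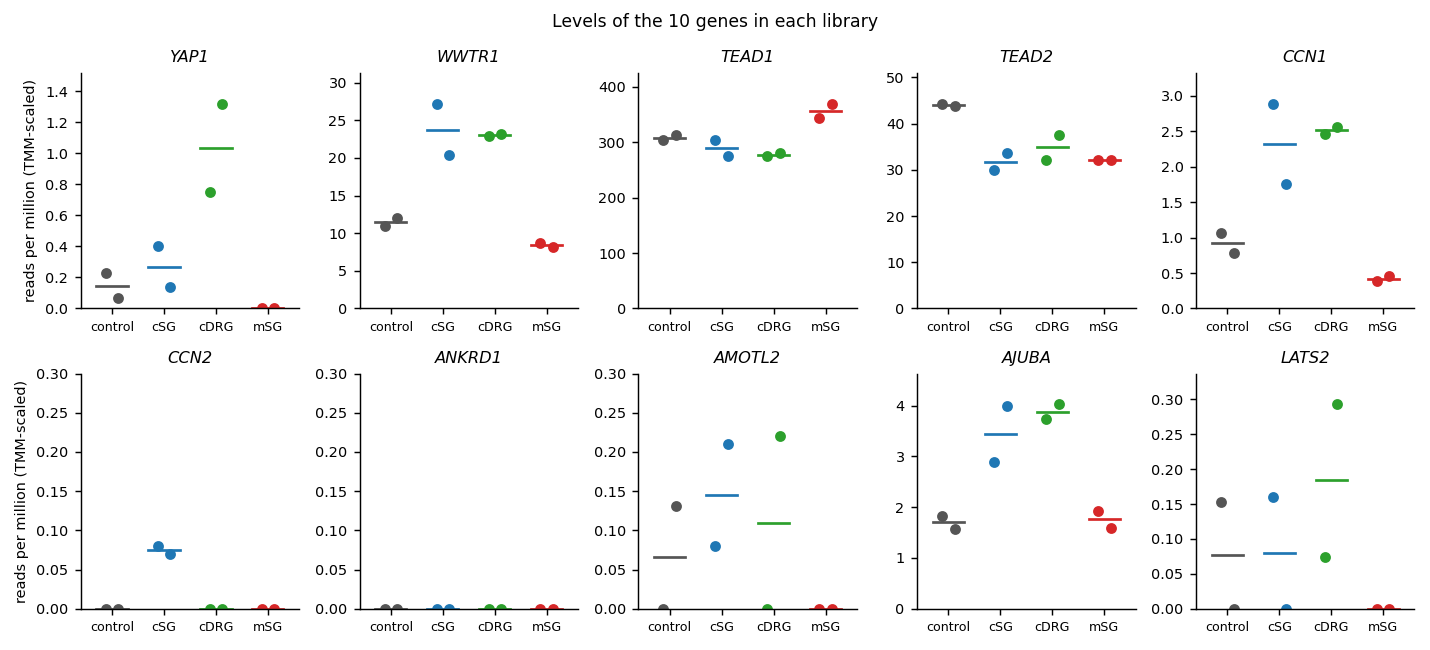
CPM of each of the 10 genes in each library, by medium (cSG, cDRG and mSG stand for the conditioned media); points are single libraries and bars mark the mean of the 2. WWTR1, CCN1 and AJUBA sat higher in both chick media than in control medium and E15.5-mSGcm, TEAD1 lay between 278 and 356 CPM on average in all media, and ANKRD1 had no read.

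WWTR1, CCN1 and AJUBA rose in both chick media, by 2.0- to 2.71-fold, and none of the 3 was called in the mouse medium against control. TEAD1 and TEAD2 stayed within the 1.5-fold limit in all comparisons. In E8-cSGcm, 3 of the 5 tested genes were called higher and none lower, where 4.73% of all tested genes were called higher and 8.59% in either direction. The count was 1 (WWTR1) under DESeq2, and it depended on control replicate 2. In E8-cDRGcm the same 3 genes were called higher and none lower, where 9.81% of all tested genes were called higher and 20.7% in either direction. In E15.5-mSGcm none of the 5 tested genes was called by edgeR, where 13.9% of all tested genes were called in either direction. None of the 10 was called by DESeq2, and 3 of the 5 tested genes had an unadjusted p under 0.05 in edgeR. With adjusted p alone as the rule, all 5 tested genes were called in E8-cDRGcm, where 49.5% of all tested genes were. In E15.5-mSGcm 3 of the 5 were called by that rule, where 37.8% of all tested genes were. The 3 comparisons share the control libraries. These genes and the lists below were chosen with earlier results known, so their shares beside all tested genes are no independent result.

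WWTR1 (ENSG00000018408, chromosome 3) encodes TAZ, a coactivator without its own DNA-binding domain. It had 143 and 183 reads in control medium, 339 and 291 in E8-cSGcm, 307 and 317 in E8-cDRGcm, and 68 and 72 in E15.5-mSGcm. Scaled for depth, the levels were 11.5 ± 0.778 CPM in control medium, 23.8 ± 4.81 in E8-cSGcm, 23.1 ± 0.184 in E8-cDRGcm and 8.47 ± 0.344 in E15.5-mSGcm (mean ± SD, n = 2 each). The chick groups did not overlap the control or the mouse group. In edgeR's quasi-likelihood test with Benjamini-Hochberg adjustment, WWTR1 rose by a log2 fold change of 1.04 (SE 0.122, fold 2.05, adjusted p = 1.66e-08) in E8-cSGcm and by 1.00 (SE 0.122, fold 2.0, adjusted p = 1.02e-08) in E8-cDRGcm. In E15.5-mSGcm the log2 fold change was -0.45 (95% interval -0.78 to -0.11, adjusted p = 0.0309 in edgeR), which did not reach the fold limit. Both chick calls held under each alternative processing and with each library left out.

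YAP1 (ENSG00000137693, chromosome 11), the paralogous coactivator, was close to the floor. It had 3 and 1 reads in control medium, 5 and 2 in E8-cSGcm, 10 and 18 in E8-cDRGcm and none in either E15.5-mSGcm library. Both E8-cDRGcm libraries were above every other library. The ratio of summed reads, scaled for depth, was 7.33 (95% counting interval 2.56 to 28.7) for E8-cDRGcm against control, 1.85 (0.47 to 8.62) for E8-cSGcm against control and 3.96 (1.69 to 10.7) for E8-cDRGcm against E8-cSGcm. YAP1 in E15.5-mSGcm had 0 of 16868162 reads, with a group floor of 0.181 CPM (3 reads over both libraries). The E8-cDRGcm level of 1.04 CPM was 5.72-fold above that floor, a value that leaves out its counting error. The 95% counting interval of that level was 0.689 to 1.5 CPM.

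YAP1 could be fitted when the filter on low counts was dropped, over 32570 genes. The edgeR adjusted p was then 0.00115 for E8-cDRGcm against control (5.19% of genes called higher), 0.0304 against E8-cSGcm (1.24% called higher) and 5.39e-05 for E15.5-mSGcm against E8-cDRGcm (7.67% called lower). Under a filter, YAP1 was held through its E8-cDRGcm reads, and the fit without E8-cDRGcm replicate 2 (18 reads) did not hold it. The tallies that follow leave that fit out and are no measure of robustness. Over the fits that held YAP1, the call of E8-cDRGcm against control was made in 8 of 10. It was lost without control replicate 2 (log2 fold change 2.12, adjusted p = 0.0518 in edgeR) and was 3.78 on the log2 scale without control replicate 1, against 2.79 with all libraries and no filter. DESeq2 gave no adjusted p. The difference of E8-cDRGcm from E8-cSGcm was called in 8 of 10 fits and lost without E8-cSGcm replicate 2 (adjusted p = 0.241 in edgeR), and that of E15.5-mSGcm from E8-cDRGcm was called in 9 of 9.

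Between the coactivators, WWTR1 made up nearly all reads. Per length, summed WWTR1 reads exceeded YAP1 reads 61.6 times in control medium, 68 times in E8-cSGcm and 16.8 times in E8-cDRGcm. These ratios rest on few YAP1 reads, and single libraries gave 36 and 138 in control medium, 51.2 and 110 in E8-cSGcm, and 23.2 and 13.3 in E8-cDRGcm. YAP1 made up 1.21% of the reads of the pair in control medium (4 of 330, Clopper-Pearson 95% interval 0.331 to 3.07), 1.1% in E8-cSGcm (0.443 to 2.25) and 4.29% in E8-cDRGcm (2.87 to 6.15). In E15.5-mSGcm it was 0 of 140, with an upper bound of 2.6% on the same interval; a floor of 3 reads corresponds to 2.14%. The E8-cDRGcm interval lay above that of E8-cSGcm and overlapped that of control medium.

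TEAD1 (ENSG00000187079, chromosome 11), a factor that binds GGAATG and recruits YAP or TAZ, had 3978 and 4747 reads in control medium, 3788 and 3921 in E8-cSGcm, 3680 and 3823 in E8-cDRGcm, and 2679 and 3231 in E15.5-mSGcm. It was the most abundant of the 10 genes per length, at 28.8 ± 0.529 FPKM in control medium (CPM per kilobase of exonic sequence). Its log2 fold changes were -0.09 (adjusted p = 0.179), -0.15 (adjusted p = 0.0149) and 0.21 (adjusted p = 0.0016) in E8-cSGcm, E8-cDRGcm and E15.5-mSGcm, all in edgeR and all below the fold limit.

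TEAD2 (ENSG00000074219, chromosome 19), a second member of the family, had 579 and 666 reads in control medium, 373 and 479 in E8-cSGcm, 431 and 512 in E8-cDRGcm, and 250 and 282 in E15.5-mSGcm. The mean level was 44.03 ± 0.335 CPM in control medium and 31.7 ± 2.57, 34.9 ± 3.73 and 32.1 ± 0.133 CPM in the 3 media in the same order. Every conditioned library lay below both control libraries. Its log2 fold changes were -0.47 (adjusted p = 3.69e-05), -0.34 (adjusted p = 0.000959) and -0.45 (adjusted p = 0.000139) in edgeR, again short of the 1.5-fold limit.

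The family members TEAD3 and TEAD4, which bind the same core, were read beside them. TEAD4 had 101 and 88 reads in control medium, 96 and 178 in E8-cSGcm, 142 and 173 in E8-cDRGcm, and 35 and 33 in E15.5-mSGcm. It was called higher in E8-cSGcm (log2 fold change 0.60, adjusted p = 0.0154 in edgeR) and E8-cDRGcm (0.80, adjusted p = 0.000708 in edgeR), and lower in E15.5-mSGcm (-0.70, adjusted p = 0.0304 in edgeR). The E8-cSGcm libraries lay far apart, and without E8-cSGcm replicate 2 the log2 fold change was 0.20 (adjusted p = 0.559 in edgeR); the call was also lost without control replicate 2, with thinned libraries and under DESeq2 (adjusted p = 0.13). The E15.5-mSGcm call was lost without control replicate 1 (adjusted p = 0.212 in edgeR) or either mouse library, and under DESeq2 (adjusted p = 0.089). TEAD3 was not called in any medium, with log2 fold changes of -0.10, -0.48 and -0.30.

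Per length, TEAD1 held 56.9% ± 0.692 of the summed TEAD level in control medium, 58.8% ± 4.68 in E8-cSGcm, 56.8% ± 1.93 in E8-cDRGcm and 67.6% ± 1.09 in E15.5-mSGcm. TEAD2 held 29.2% ± 0.403, 23.2% ± 1.69, 25.6% ± 1.55 and 21.9% ± 0.684 in the same order. TEAD4 held 5.87% ± 1.22, 9.63% ± 3.15, 11.2% ± 0.879 and 3.7% ± 0.582 (all mean ± SD, n = 2). The order TEAD1 above TEAD2 held in every group.

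VGLL4, the competitor of YAP and TAZ for TEAD, rose in the mouse medium. It had 1224 and 1518 reads in control medium, 995 and 1215 in E8-cSGcm, 1049 and 1039 in E8-cDRGcm, and 1537 and 1775 in E15.5-mSGcm, although the mouse libraries were the shallowest. Its level was 96.7 ± 4.41 CPM in control medium and 199.8 ± 4.15 in E15.5-mSGcm (log2 fold change 1.05, adjusted p = 2.08e-17 in edgeR). In the chick media it lay lower, at 82.4 ± 3.75 CPM in E8-cSGcm and 77.3 ± 1.66 in E8-cDRGcm. The log2 fold changes there were -0.23 (adjusted p = 0.00264) and -0.325 (adjusted p = 2.06e-05) in edgeR, short of the fold limit. VGLL1, VGLL2 and VGLL3 were not tested.

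**Figure D2:**
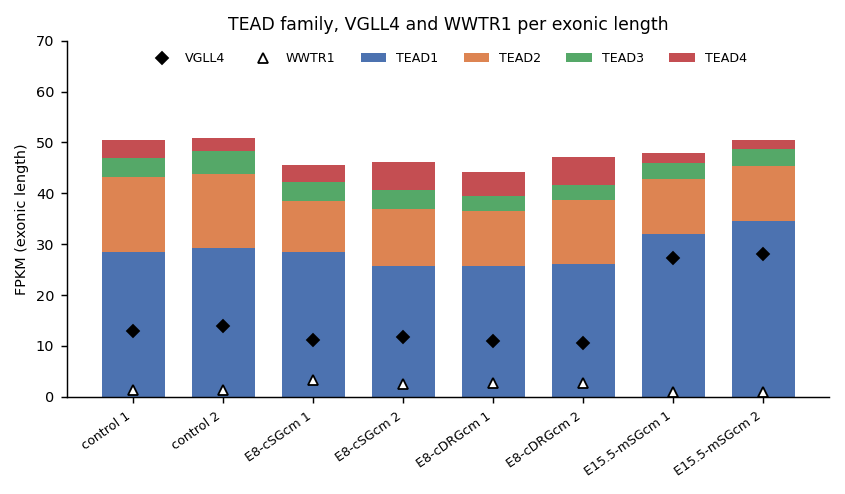
Stacked bars show the level of TEAD1 to TEAD4 per length (FPKM) in each library, diamonds VGLL4 and triangles WWTR1 on the same axis. TEAD1 makes up the largest part of every bar, and VGLL4 stands highest in the E15.5-mSGcm libraries.

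CCN1 (ENSG00000142871, chromosome 1), a secreted matricellular protein and a standard target of YAP and TAZ, had 14 and 12 reads in control medium, 36 and 25 in E8-cSGcm, 33 and 35 in E8-cDRGcm, and 3 and 4 in E15.5-mSGcm. The chick libraries were all above the control and mouse libraries, at low counts throughout. CCN1 rose by a log2 fold change of 1.31 (SE 0.363, adjusted p = 0.00521) in E8-cSGcm and 1.44 (SE 0.356, adjusted p = 0.000904) in E8-cDRGcm, both in edgeR. In E15.5-mSGcm its log2 fold change was -1.11 (95% interval -2.31 to 0.10, adjusted p = 0.147 in edgeR). The E8-cSGcm call was lost without control replicate 2 (adjusted p = 0.0799 in edgeR) or without E8-cSGcm replicate 1 (0.13), and DESeq2 gave no adjusted p for it. With every library thinned to 7930765 reads, both chick calls were lost (adjusted p = 0.075 and 0.0714 in edgeR).

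CCN2 (ENSG00000118523, chromosome 6), a relative of CCN1, had 1 read in each E8-cSGcm library and none in the other 6. ANKRD1 (ENSG00000148677, chromosome 10), a target gene that encodes a nuclear ankyrin-repeat protein, had no read in any library. The group floors were 0.106 CPM in control medium, 0.112 in E8-cSGcm, 0.111 in E8-cDRGcm and 0.181 in E15.5-mSGcm. A fall of CCN2 or ANKRD1, or a rise that stays under these floors, was not detectable at this depth. Fitted without the filter, CCN2 in E8-cSGcm had an adjusted p of 0.678 in edgeR. Their promoter windows, printed above, hold the most GGAATG matches among the 12.

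AJUBA (ENSG00000129474, chromosome 14), a LIM-domain scaffold that restrains LATS kinases, had 24 and 24 reads in control medium, 36 and 57 in E8-cSGcm, 50 and 55 in E8-cDRGcm, and 15 and 14 in E15.5-mSGcm. Scaled for depth, the level was 1.71 ± 0.182 CPM in control medium, 3.44 ± 0.781 in E8-cSGcm, 3.88 ± 0.205 in E8-cDRGcm and 1.76 ± 0.228 in E15.5-mSGcm. The chick libraries lay above all control and mouse libraries, while control and mouse groups overlapped. AJUBA rose by 1.03 (SE 0.277, adjusted p = 0.00403) and 1.19 (SE 0.27, adjusted p = 0.00036) on the log2 scale in the chick media, and in E15.5-mSGcm its log2 fold change was 0.05 (95% interval -0.68 to 0.77, adjusted p = 0.939), all in edgeR. Its E8-cSGcm call was lost without control replicate 2 (adjusted p = 0.0576 in edgeR), without E8-cSGcm replicate 2 (0.12) and under DESeq2 (0.0799).

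AMOTL2 (ENSG00000114019, chromosome 3), an angiomotin that binds YAP, had at most 3 reads in a library. LATS2 (ENSG00000150457, chromosome 13), a kinase of YAP and TAZ, had at most 4. For E8-cDRGcm against control, the read ratio was 1.57 (95% counting interval 0.18 to 18.8) for AMOTL2 and 2.62 (0.428 to 27.5) for LATS2. Neither gene had a read in E15.5-mSGcm. These intervals leave both directions possible.

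**Figure D3:**
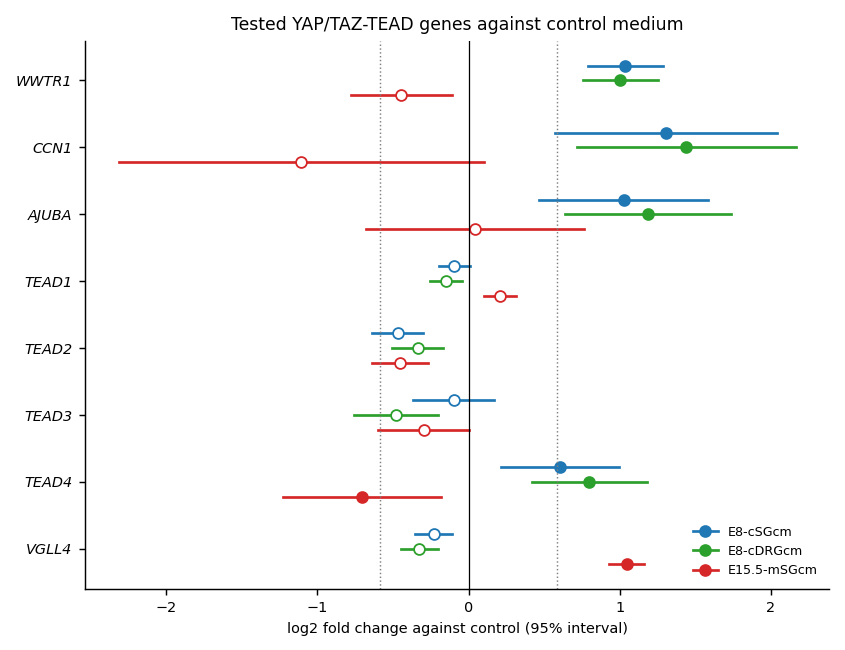
Fitted log2 fold change with its 95% interval for the 5 tested genes and for TEAD3, TEAD4 and VGLL4 in each medium against control; filled points were called, open points were not, and dotted lines mark a fold of 1.5. WWTR1, CCN1 and AJUBA are filled to the right in both chick media and open in E15.5-mSGcm.

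The media were also set against each other. Between E8-cDRGcm and E8-cSGcm none of the 5 tested genes was called by edgeR or DESeq2, and none had an unadjusted p under 0.05 in edgeR, where 7.49% of all tested genes were called. The interval of the log2 difference was -0.26 to 0.19 for WWTR1, -0.48 to 0.75 for CCN1 and -0.32 to 0.65 for AJUBA, so differences up to those bounds remain possible. Against E8-cSGcm, E15.5-mSGcm had lower WWTR1 (log2 difference -1.48, adjusted p = 1.06e-10), CCN1 (-2.41, adjusted p = 0.000118) and AJUBA (-0.98, adjusted p = 0.00913) in edgeR, where 12.1% of all tested genes were called lower and 22.3% in either direction. Against E8-cDRGcm the same 3 genes were lower, by -1.45 (adjusted p = 1.24e-10), -2.55 (adjusted p = 3.62e-05) and -1.14 (adjusted p = 0.00191) in edgeR, where 13.1% were called lower and 26.2% in either direction. The AJUBA difference from E8-cSGcm was lost without E8-cSGcm replicate 2 (adjusted p = 0.131 in edgeR), without E15.5-mSGcm replicate 2 (0.0941) and under DESeq2 (0.0989).

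Over all tested genes, 604 (3.62%) were called higher in both chick media than in control medium, and 373 (2.24%) were also lower in E15.5-mSGcm than in both chick media. WWTR1, CCN1 and AJUBA were among both sets, as were TEAD4 and PTPN14 of the wider lists.

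Of 25 Hippo kinases and upstream regulators, 22 were tested. In E8-cSGcm 3 rose and none fell, or 13.6%. Of all tested genes, 4.73% were called higher and 8.59% in either direction (median log2 fold change 0.03, against 0.01 over all tested genes). In E8-cDRGcm 6 rose and none fell, 27.3% against 9.81% called higher and 20.7% in either direction (median 0.14 against 0.006). In E15.5-mSGcm 1 rose and none fell, 4.55% against 6.65% called higher and 13.9% in either direction (median 0.07 against -0.015). AJUBA is 1 of the risers in both chick media. STK3, which encodes the kinase MST2, had 370 and 393 reads in control medium, 481 and 656 in E8-cSGcm, 740 and 795 in E8-cDRGcm, and 266 and 299 in E15.5-mSGcm. It rose by a log2 fold change of 0.65 in E8-cSGcm (adjusted p = 2.55e-07) and 1.07 in E8-cDRGcm (adjusted p = 2.2e-13) in edgeR. The E8-cSGcm value fell under the fold limit without control replicate 2 or E8-cSGcm replicate 2. In E15.5-mSGcm STK3 was higher by 0.34 (adjusted p = 0.00605 in edgeR), short of the fold limit.

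PTPN14, a phosphatase that holds YAP in the cytoplasm and is also a target gene, had 62 and 67 reads in control medium, 123 and 101 in E8-cSGcm, 171 and 164 in E8-cDRGcm, and 28 and 35 in E15.5-mSGcm. It rose by 0.88 (adjusted p = 0.00025) and 1.44 (adjusted p = 5.35e-09) on the log2 scale in the chick media in edgeR, and had a value of -0.26 (adjusted p = 0.42) in E15.5-mSGcm. TAOK3, a kinase upstream of MST kinases, rose in E8-cDRGcm (0.70, or 0.58 and short of the fold limit without control replicate 2). It was also higher, short of the fold limit, in E8-cSGcm (0.42, adjusted p = 6.3e-05 in edgeR) and E15.5-mSGcm (0.53, adjusted p = 3.26e-06 in edgeR). The E15.5-mSGcm value of TAOK3 was 0.64, past the fold limit, without control replicate 1. FRMD6, a FERM-domain protein, rose in E15.5-mSGcm (0.65). The remaining risers of E8-cDRGcm were WWC3 (0.74) and AMOT (0.75), named here after their values were seen.

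Of 22 wider YAP/TAZ targets, among them CCN1, CCN2, ANKRD1, AMOTL2 and LATS2, 15 were tested, and the list did not move in 1 direction. In E8-cSGcm 2 rose and 1 fell, 20% called against 8.59% of all tested genes (median 0.08 against 0.01). In E8-cDRGcm 4 rose and 3 fell, 46.7% against 20.7% (median 0.53 against 0.006), and in E15.5-mSGcm 1 rose and 1 fell, 13.3% against 13.9% (median -0.05 against -0.015). NT5E, the ecto-nucleotidase CD73, had 1584 and 1829 reads in control medium, 915 and 1171 in E8-cSGcm, 572 and 529 in E8-cDRGcm, and 573 and 636 in E15.5-mSGcm. It fell in all 3 media (log2 fold changes -0.63, -1.57 and -0.73), and its E8-cSGcm value was short of the fold limit without E8-cSGcm replicate 1 (-0.55).

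NUAK2, a kinase that acts on the cytoskeleton, had 5 and 3 reads in control medium, 8 and 3 in E8-cSGcm, 11 and 12 in E8-cDRGcm, and 19 and 21 in E15.5-mSGcm. It passed the filter on low counts only through its E8-cDRGcm and E15.5-mSGcm reads, the groups in which it was called higher. In E15.5-mSGcm it rose by a log2 fold change of 3.05 (adjusted p = 1.49e-05 in edgeR). In E8-cDRGcm it rose by 1.55 (adjusted p = 0.0306 in edgeR), a call lost under DESeq2 (adjusted p = 0.144) and without control replicate 2 (adjusted p = 0.23 in edgeR), E8-cDRGcm replicate 1 (0.0794) or E8-cDRGcm replicate 2 (0.109).

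Markers of other cell types were read beside these values. Among markers of Schwann and satellite glia, SOX10 and FABP7 had no read and S100B at most 1, and the summed level of the list was 1.12 to 1.45 CPM in control medium, 2.24 to 2.45 in E8-cSGcm, 2.47 to 4.1 in E8-cDRGcm and 2.43 to 3.31 in E15.5-mSGcm. ERBB3 was the marker of that list that was called, higher in E8-cDRGcm and E15.5-mSGcm. The 6 fibroblast markers summed to 158 to 175 CPM in control medium, 212 to 223 in E8-cSGcm, 194 to 200 in E8-cDRGcm and 162 to 174 in E15.5-mSGcm, so that the sum was higher in both chick media, where WWTR1, CCN1 and AJUBA rose; their part in those results was not tested. COL1A1 went from 106 ± 9.72 CPM in control medium to 145.7 ± 14.9 and 146.4 ± 6.70 in the chick media, short of the fold limit, and DCN was called lower in E8-cDRGcm (log2 fold change -0.69, adjusted p = 0.0383 in edgeR). LUM lay at 52.2 CPM in control medium, 62.95 in E8-cSGcm and 44.95 in E8-cDRGcm, and COL1A2 at 3.11, 4.40 and 2.29. COL3A1 lay at 1.26, 0.866 and 0.745 CPM in the same order, and PDGFRA at 0.798, 1.20 and 0.850. In E8-cDRGcm the sum was thus higher mainly through COL1A1, while LUM, COL1A2, COL3A1 and DCN lay lower on average. None of the 6 was called higher in a chick medium. In E15.5-mSGcm 4 of them rose, where 6.65% of all tested genes were called higher and 7.27% lower. The log2 fold changes were 2.01 for COL1A2, 2.30 for DCN, 0.93 for LUM and 3.65 for PDGFRA, while COL1A1 fell by 1.82 on the log2 scale. Of 4 endothelial markers 3 were matched: CDH5 had no read, TEK at most 1, and KDR 14 and 9 reads in control medium, 7 and 2 in E8-cSGcm, and at most 1 in the other libraries. Their summed level was at most 1.07 CPM. All 7 noradrenergic markers were tested, and their sum was 1330 to 1350 CPM in control medium and 994 to 1180 CPM in the conditioned media, with 2, 4 and 2 of them called lower in E8-cSGcm, E8-cDRGcm and E15.5-mSGcm, where 3.86%, 10.9% and 7.27% of all tested genes were. Genes that overlap the 10 on either strand had 0 to 7 reads in a library.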

How the data were processed

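The 8 libraries came from IGR-N91 aggregates, 2 per medium, made from 50 ng of RNA and read singly over 75 bp. The authors deposited raw read counts per Ensembl gene, with no normalization. The submitters' processing notes name bcl2fastq 2.17.1.14, cutadapt 1.9.1, TopHat2 2.1.0 and HTSeq 0.11.3. The study's methods give hg19 as the build and the processing notes hg38, so no gene coordinates were taken from the table. The annotation release and strand option are not given in the sources used here. Counts were TMM-scaled, filtered by filterByExpr and tested with edgeR 4.0.16 (robust quasi-likelihood fit over all 8 libraries, Benjamini-Hochberg adjustment over 16680 genes) in R 4.3.3. Steps were tested on simulated data. Symbols and exonic lengths came from GENCODE lifted to GRCh37, matched by identifier; 58611 identifiers had a symbol. Members, lists and markers were chosen with earlier results of these data known; 1 marker is not reported here. Outside the 10 genes and the markers, those named were called in at least 2 media or were the highest or lowest called gene of a list in a medium, except TEAD3, WWC3 and AMOT, named after their values were seen. Alternatives were DESeq2 1.42.0, RLE factors, library totals, other filters, thinning, a fit of only the 4 libraries of a comparison, a block for the replicate number, calls by adjusted p alone, and each library left out in turn. The labels do not say whether same-numbered libraries were made together. Correlations of same-numbered deviations ran from -0.0437 to 0.042, so no shared shift by replicate number was seen.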

Additional observations from a re-analysis of the deposited data

Results flagged for a closer look

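Direct comparison of the media in edgeR gave differences between their effects on single genes, each past the adjusted p and fold limits. Between E15.5-mSGcm and E8-cSGcm, the log2 difference was -1.48 for WWTR1, -2.41 for CCN1, -0.98 for AJUBA, -1.31 for TEAD4 and -1.14 for PTPN14, all lower in the mouse medium. It was 1.28 for VGLL4, 0.62 for FRMD6 and 2.52 for NUAK2, all higher there. Between E15.5-mSGcm and E8-cDRGcm, it was -1.45 for WWTR1, -2.55 for CCN1, -1.14 for AJUBA, -1.5 for TEAD4, -0.74 for STK3 and -1.7 for PTPN14. It was 1.37 for VGLL4, 0.84 for NT5E and 1.49 for NUAK2 in the same comparison. Between E8-cDRGcm and E8-cSGcm, NT5E differed by -0.93. The FRMD6 difference was under the fold limit with library totals (0.56), with no filter (0.55) and without E8-cSGcm replicate 1 (0.58). The NUAK2 difference between E15.5-mSGcm and E8-cDRGcm was not called by DESeq2 (adjusted p = 0.0812). NUAK2 passed the filter on low counts only through its reads in these media.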

How the results depend on the processing

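Of 503 values of the 5 tested genes among the 10 under the alternatives, 484 stayed on their side of the thresholds, 8 passed them and 11 fell short. YAP1, CCN2, ANKRD1, AMOTL2 and LATS2 were not in this tally. No called value changed sign, but uncalled values near 0 did, such as WWTR1 (-0.23 to 0.18) and CCN1 (-0.20 to 0.52) between the chick media. WWTR1 in E8-cSGcm ranged from 0.83 to 1.24. Of 809 values of the other named genes, 774 stayed on their side, 15 passed and 20 fell short, and uncalled values again changed sign, such as FRMD6 in E8-cSGcm (-0.01 to 0.11). With DESeq2, 1 of the 10 genes (WWTR1) was called in E8-cSGcm, and 855 genes in all against 1433 in edgeR; between the chick media it called 690 against 1249. By adjusted p alone, calls rose to 5213 in E8-cSGcm, 8261 in E8-cDRGcm (from 3460), 6305 in E15.5-mSGcm (from 2322), 5037 between the chick media, 8304 between E15.5-mSGcm and E8-cSGcm (from 3727) and 8767 between E15.5-mSGcm and E8-cDRGcm (from 4368). All 5 tested genes among the 10 were then called in E8-cDRGcm, and 3 of these 5 in E15.5-mSGcm (WWTR1, TEAD1 and TEAD2). YAP1 made 1 call between the chick media with no filter and with only the 4 libraries compared.

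With each library left out, calls among the 10 genes ranged from 1 to 3 in E8-cSGcm (1 without control replicate 2), 3 to 4 in E8-cDRGcm, 0 to 0 in E15.5-mSGcm, 0 to 1 between the chick media, 2 to 3 between E15.5-mSGcm and E8-cSGcm, and 3 to 4 between E15.5-mSGcm and E8-cDRGcm. Over all genes they ranged from 1182 to 1424, 3153 to 3585, 1797 to 2429, 999 to 1281, 3232 to 3865 and 3992 to 4532 in that order. A library left alone in its group was assumed to vary like the other groups. With the replicate number as a block, calls over all genes were 1414, 3444, 2288, 1233, 3723 and 4342 in that order, and no call among the 10 genes changed. Depth limits YAP1, CCN2, ANKRD1, AMOTL2 and LATS2, and the shallower mouse libraries most.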
